A study of Homo sapiens with 191 samples.

Results

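The 500 protein-coding genes described here had no accessible region at any of their annotated transcription start sites (TSSs) but at least 4 regions elsewhere in or near the gene. They were chosen by the position of regions in the deposited list: no region centre lay within 1 kb of a TSS of the gene, and 4 or more lay in the gene body or in the 10 kb on either side. The 500 genes were taken from 20098 protein-coding genes on chromosomes 1 to 22 and X, and their 2877 regions from a list of 50000, 5.75% of it. Of all protein-coding genes, 42.8% had no region within 1 kb of a TSS, called here a promoter region, and 2.49% also had 4 or more regions and so make up the set. The absence at the TSS and the number of regions are what chose the genes and are given as description only.

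Accessible chromatin was profiled by single-cell ATAC-seq in GM12878, a human B-lymphoblastoid line that Epstein-Barr virus had transformed. After fixation and permeabilisation the unstained cells were transposed together and then sorted singly into plates, with 96 libraries of plate 1 and 95 of plate 2 covered here. All libraries form 1 group of 1 cell line, and the authors called regions on the pooled cells. Their methods do not say outright whether libraries that later failed the quality filter were among those pooled. Single cells thus have no values of their own in the list, nothing serves as a replicate or a second group, and no test over samples was possible. The depth of the libraries is unknown from the list. Each region carries a score, the authors' −log10 of the q-value, which ran upwards from 16.03 at the end of the list. A gene without a promoter region has none in this list of strongest regions, which does not show that its promoter was closed. As a check of the label, 10 of 12 B cell marker genes had a promoter region, against 3 of 13 markers of other lineages (CD14, KRT8 and LYZ).

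In the transposition assay, Tn5 cuts DNA where nucleosomes are displaced. Promoters of genes in use, enhancers and insulators are the main classes of such sites. Accessible sites in and around a gene can be its own promoters and enhancers, but also promoters of other genes, enhancers that act on more distant genes, insulators, or starts that an annotation lacks. Vertebrate promoters fall broadly into those rich in CpG dinucleotides, which are often accessible in many cell types, and those poor in CpG, which are more often restricted to certain cells.

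The following windows show the middle 201 bases of the strongest region away from annotated TSSs at genes on which the account turns. They are given 5′ to 3′ on GRCh37 with matches to consensus motifs in capitals. The genes come from the rule for named genes. The windows of STK24 and PCDHGA1 follow from the rule for sequences, and the other windows were picked after their values were seen. A further window, at CD22, held no match to any motif searched and is not shown. Each motif was searched on both strands, and its share is that of all 50000 regions holding it. The ETS motif (CCGGAAGT) was in 2.76% of regions, and that of RUNX factors, regulators of blood cell development, was TGTGGTT in 11.6%. For AP-1, the dimer of FOS and JUN proteins, TGANTCA was in 16.9%. The motif of EBF1, a factor of B cell identity, was CCCNNGGGA in 12.7%. For the zinc finger factors of the GATA family the letters AGATAAG were in 4.53%. The interferon-stimulated response element, bound by IRF factors, was taken as GAAANTGAA and was in 4.58%. NFY, a factor of many promoters, had CCAATCA in 6.60%. The E-box of E2A, a factor of early B cells, was CAGCTG in 29.4%, and the GC box of the SP and KLF factors was GGGGCGGGG in 10.1%. In the PRR16 window 2 EBF1 matches overlapped each other, and in the PCDHGA1 window the E-box overlapped the RUNX match. A match is a description of letters and not a binding site.
STK24 intron (chr13:99128866-99129066, forward strand): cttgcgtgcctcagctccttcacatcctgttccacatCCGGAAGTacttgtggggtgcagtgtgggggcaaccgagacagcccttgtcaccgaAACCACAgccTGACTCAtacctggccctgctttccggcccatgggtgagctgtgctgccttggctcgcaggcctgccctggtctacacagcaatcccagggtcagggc
PRR16 upstream (chr5:119793936-119794136, forward strand): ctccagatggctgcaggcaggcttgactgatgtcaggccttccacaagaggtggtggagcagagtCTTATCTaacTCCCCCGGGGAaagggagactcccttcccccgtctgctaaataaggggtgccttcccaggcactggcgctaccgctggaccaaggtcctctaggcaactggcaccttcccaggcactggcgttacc
PKD1L1 intron (chr7:47977026-47977226, forward strand): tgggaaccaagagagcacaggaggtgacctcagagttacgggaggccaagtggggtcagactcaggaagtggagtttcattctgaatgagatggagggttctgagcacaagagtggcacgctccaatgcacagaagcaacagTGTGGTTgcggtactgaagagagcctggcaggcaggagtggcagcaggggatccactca
LITAFD downstream (chr16:8985528-8985728, forward strand): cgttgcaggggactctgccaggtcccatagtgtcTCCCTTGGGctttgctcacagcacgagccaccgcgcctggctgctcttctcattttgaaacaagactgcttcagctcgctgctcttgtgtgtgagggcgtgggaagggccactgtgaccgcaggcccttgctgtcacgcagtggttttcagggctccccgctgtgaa
CX3CR1 upstream (chr3:39329983-39330183, forward strand): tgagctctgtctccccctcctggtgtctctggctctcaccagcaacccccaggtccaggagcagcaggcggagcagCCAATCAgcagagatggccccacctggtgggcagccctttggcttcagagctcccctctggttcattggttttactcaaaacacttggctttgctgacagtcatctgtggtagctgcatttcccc
IL2RA intron (chr10:6092829-6093029, forward strand): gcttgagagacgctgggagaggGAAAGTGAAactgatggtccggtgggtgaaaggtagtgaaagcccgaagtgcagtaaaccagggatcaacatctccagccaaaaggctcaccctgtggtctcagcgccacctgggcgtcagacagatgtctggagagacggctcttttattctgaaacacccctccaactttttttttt
TNFRSF13C upstream (chr22:42332345-42332545, forward strand): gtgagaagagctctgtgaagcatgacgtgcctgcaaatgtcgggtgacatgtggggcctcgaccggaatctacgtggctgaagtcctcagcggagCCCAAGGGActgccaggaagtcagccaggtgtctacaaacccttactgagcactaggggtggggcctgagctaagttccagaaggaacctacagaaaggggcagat
PCDHGA1 downstream (chr5:140893582-140893782, forward strand): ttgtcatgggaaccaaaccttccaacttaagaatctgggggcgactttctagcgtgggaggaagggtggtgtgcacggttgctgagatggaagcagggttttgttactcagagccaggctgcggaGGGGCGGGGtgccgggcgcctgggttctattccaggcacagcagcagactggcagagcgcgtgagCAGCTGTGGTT

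The STK24 intron thus held an ETS match and, further on, a RUNX and an AP-1 match close together. The IL2RA intron held 1 IRF match, and the windows at LITAFD and TNFRSF13C 1 EBF1 match each. The next sequences are the 250 bases before the start of the main (canonical) transcript of 3 of these genes, in the direction of the gene, with CpG dinucleotides in capitals. They are shown because none of these starts had a region, although their base composition differed widely: the STK24 stretch held 43 CpG and 87.6% G or C, that of PRR16 34 CpG and 73.2%, and that of IL2RA 3 CpG and 40.0%.
STK24 promoter (chr13:99229362-99229611, reverse strand): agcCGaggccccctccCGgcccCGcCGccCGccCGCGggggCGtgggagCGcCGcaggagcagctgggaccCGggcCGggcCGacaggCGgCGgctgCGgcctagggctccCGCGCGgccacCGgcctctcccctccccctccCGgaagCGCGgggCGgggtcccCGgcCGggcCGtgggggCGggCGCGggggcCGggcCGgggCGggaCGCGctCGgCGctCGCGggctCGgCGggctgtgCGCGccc
PRR16 promoter (chr5:119799745-119799994, forward strand): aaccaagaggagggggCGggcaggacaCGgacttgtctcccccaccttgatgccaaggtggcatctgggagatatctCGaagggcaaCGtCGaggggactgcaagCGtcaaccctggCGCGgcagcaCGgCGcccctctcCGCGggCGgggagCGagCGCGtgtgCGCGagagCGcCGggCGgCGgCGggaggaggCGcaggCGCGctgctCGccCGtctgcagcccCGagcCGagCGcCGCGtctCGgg
IL2RA promoter (chr10:6104331-6104580, reverse strand): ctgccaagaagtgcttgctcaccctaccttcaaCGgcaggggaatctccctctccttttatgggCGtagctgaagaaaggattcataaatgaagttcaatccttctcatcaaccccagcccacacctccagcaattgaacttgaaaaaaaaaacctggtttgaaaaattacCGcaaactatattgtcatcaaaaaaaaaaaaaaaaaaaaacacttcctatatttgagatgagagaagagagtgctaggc

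Most of the regions lay in introns of the genes themselves. Introns of member genes held 1655 of the 2877 regions (57.5%, exact binomial 95% interval 55.7 to 59.3%), and their exons held 4.31%. Promoters of neighbouring protein-coding genes made up 510 regions (17.7%, 16.3 to 19.2%). Another 5.11% lay within 1 kb of a TSS of another kind of gene, mostly a long non-coding RNA (99 regions). The remainder was intergenic (335 regions, 11.6%) or lay in introns (80) or exons (26) of other protein-coding genes. These intervals cover counting error only. Counted per gene, 69.7% of memberships fell in the gene body, 10.8% upstream and 19.5% downstream, and 65 genes had no region in the body at all.

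**Figure D1:**
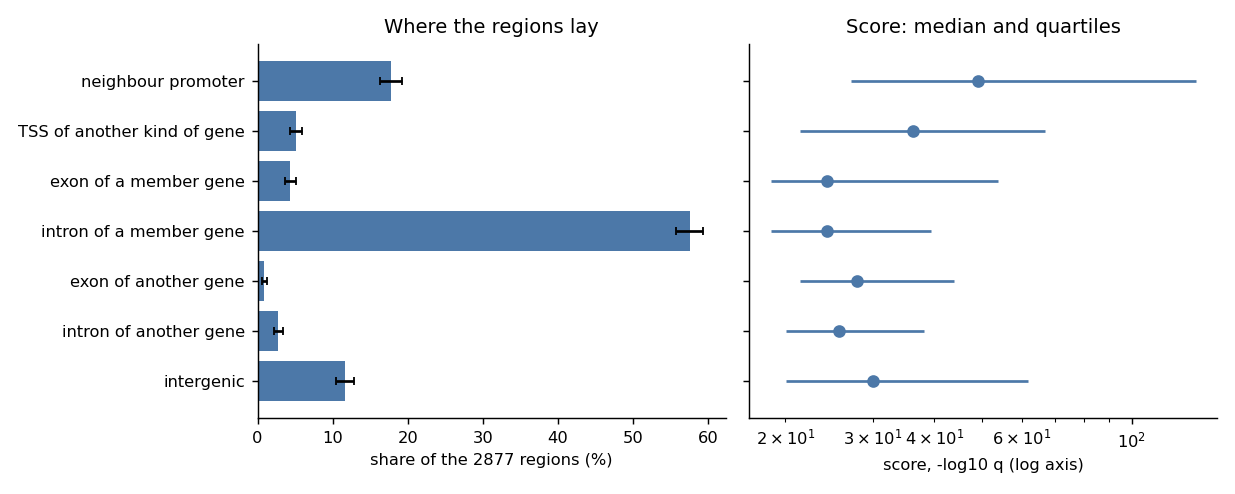
Left, share in percent of the 2877 regions in each class, with exact binomial 95% intervals as bars; right, the median score (point) and quartiles (line) of each class on a log axis. Introns of the member genes held 57.5% of regions, while neighbour promoters, at 17.7%, had the highest median score, 49.1.

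Neighbour promoters accounted for the highest scores and for a part of the genes outright. Of the 500 genes, 207 (41.4%) had at least 1 region that was a promoter of another gene, 293 had none, and for 22 genes every region was one. Without them, 362 genes still had 4 or more regions. The neighbours numbered 314 genes. CUBN, the cubilin receptor of kidney and gut, took a region of 2446.63 from the promoter of RSU1 beyond its 3′ end, and its other regions scored 25.7, 22.8 and 20.0. CLMP, a cell adhesion molecule, had 4 regions of 1824, 83.9, 31.6 and 27.2, of which the first 3 were promoters of HSPA8, the constitutive heat shock protein HSC70. Similar cases were UNC80 beside RPE (1841), CARD6 beside RPL37, a ribosomal protein gene (1340.84), and APOBEC2 beside NFYA (1310.11). These regions were counted for the member genes by position alone.

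In 28 genes, 19 of them with a gene symbol and no readthrough name, all regions were neighbour promoters or lay within 1 kb of a neighbour promoter. Among these, HSF4, a heat shock factor of the lens, had 7 regions at the promoters of TRADD, FBXL8, NOL3 and an unnamed gene, with scores between 20.0 and 96.9. VEGFB, a vascular growth factor, had 6, led by 366.6 near an unnamed gene, and RDH5, a retinol dehydrogenase, 7, led by 199.2 at BLOC1S1. MMP19 (5 regions, up to 397.1) and P2RY11 (6 regions, up to 60.9) belonged to the same group. These genes span 3.68 to 7.53 kb, so the 10 kb flanks covered more sequence than the genes. Over all memberships at neighbour promoters, 39.1% lay within the body of the member gene, 38.5% downstream and 22.4% upstream.

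Away from protein-coding promoters, regions at the member genes scored a little lower than those at genes that did have a promoter region. The 2367 such regions at member genes had a median score of 24.3 (quartiles 18.7 to 43.4), and 8.66% scored 100 or more. The 14205 at the 4076 genes with a promoter region and 4 or more regions, leaving out those also at member genes, had a median of 27.2 (20.0 to 50.7), and 11.2% scored 100 or more. Over the rest of the list away from promoters the median was 25.7. The 510 neighbour promoters, at 49.1, lay below all 16365 promoter regions of the list, at 64.3. Scores are tied at fixed steps, and the groups differ by less than their quartile ranges. By span, the median away from promoters was 30.1 at member genes under 50 kb, 28.6 at 50 to 200 kb and 21.4 over 200 kb. The genes with a promoter region were not split by span, so the gene sets were not compared at equal span. The next region lay a median of 5.64 kb away at member genes, against 2.84 kb at the genes with a promoter region and 6.38 kb over the rest of the list away from promoters. That next region could be a promoter. Genes with a promoter region have one by definition and member genes have none of their own, so the shorter spacing is in part built in.

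**Figure D2:**
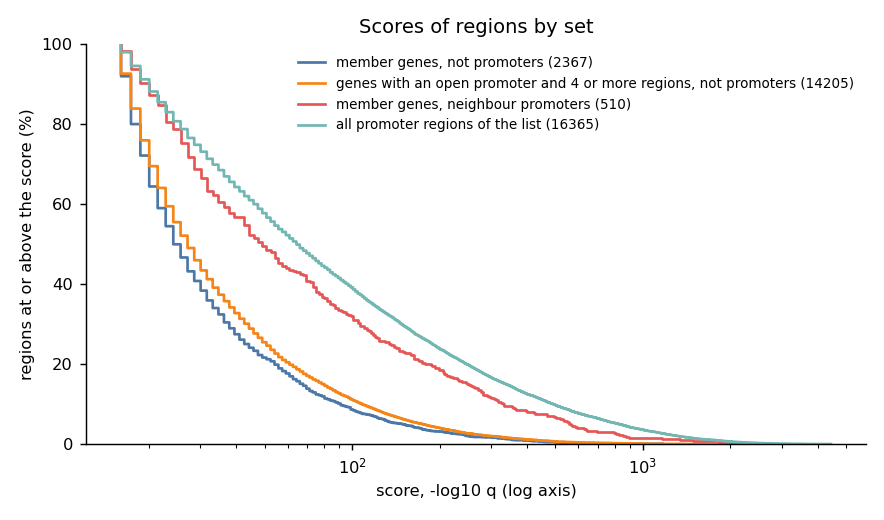
Share of regions (percent) at or above each score (−log10 q, log axis) for 4 sets, with the number of regions in brackets. The curve of regions away from promoters at member genes (median 24.3) runs just below that at genes with an open promoter (27.2), and both lie far below the promoter curves (49.1 and 64.3). The sets were not matched for the span of the genes.

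Several single regions away from protein-coding promoters reached high scores. ERVMER34-1, which encodes an envelope protein of an endogenous retrovirus, led with 1172, but that region lay at the start of an unnamed long non-coding RNA, and a second one (214.1) lay 23 bp from DANCR, a long non-coding RNA. PRR16, a gene of a proline-rich protein, had 1 region of 1169, 5959 bp upstream of its TSS and 464th of the whole list, and 3 weak intronic regions of 17.3, 17.3 and 16.0. PKD1L1, a relative of polycystin-1, had an intronic region of 791.1 located 10937 bp from its nearest TSS, with a second of 80.3 beside it. LITAFD had its strongest region (780.7) downstream of the gene, 5483 bp from the nearest TSS of USP7, a deubiquitinase. In SDR42E2, a dehydrogenase family gene, 2 regions of 589.3 and 161.7 lay in exon sequence at the 3′ end. GCNA had a region of 529.8 at 4362 bp from a TSS of CXCR3, a chemokine receptor whose promoter regions (318.2, 89.4 and 37.8) were also counted for it. The best region that was no neighbour promoter had a median score of 62.6 over the 478 genes that had one, and reached 100 in 31.0% of them.

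STK24, a serine/threonine kinase also known as MST3, had the most regions of any member gene together with PCDHGA1. Of its 26 regions, 24 were no neighbour promoters, and the other 2 lay within 1 kb of a TSS of FARP1 near the 3′ end of STK24. The strongest (841, rank 875 of the list) lay in an intron 10151 bp from the nearest TSS, and those of 121.7 and 30.1 came from the same called peak. Other regions of 100 or more were intronic ones of 246.6, 174.1, 115.9 and 108.2, and the FARP1 promoter at 100.6. The nearest region to any of its 8 annotated TSSs was 1790 bp away, and the gene with its flanks held 15.7 regions per 100 kb that were not neighbour promoters, where the median over all member genes was 2.68.

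The γ-protocadherin cluster gave 12 of the member genes and shows how overlapping annotation shapes the count. Each of these cell adhesion genes begins at a variable exon of its own and runs to constant exons shared by the whole cluster, so that each body contains the starts of the genes downstream. PCDHGA1, the first, had 26 regions, of which 15 were promoters of sister genes such as PCDHGC3 (199.2), PCDHGB7 (104.4) and PCDHGA10 (45.8) or of TAF7, a subunit of TFIID, in the upstream flank (399.5). All regions of the other member genes in the cluster were among these 26, with 23 each at PCDHGA2, PCDHGA3, PCDHGA4, PCDHGA5 and PCDHGB1, and 19 to 22 at PCDHGA6, PCDHGA8, PCDHGA9, PCDHGB5 and PCDHGB6, and 11 at PCDHGC5. The strongest region that was no neighbour promoter (186.6) lay just beyond the 3′ end, near others of 127.6 and 123.7 around the constant exons. These 12 genes are 1 locus and not independent cases. Over the whole set, the 500 genes formed 470 separate loci, of which 450 held 1 gene.

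**Figure D3:**
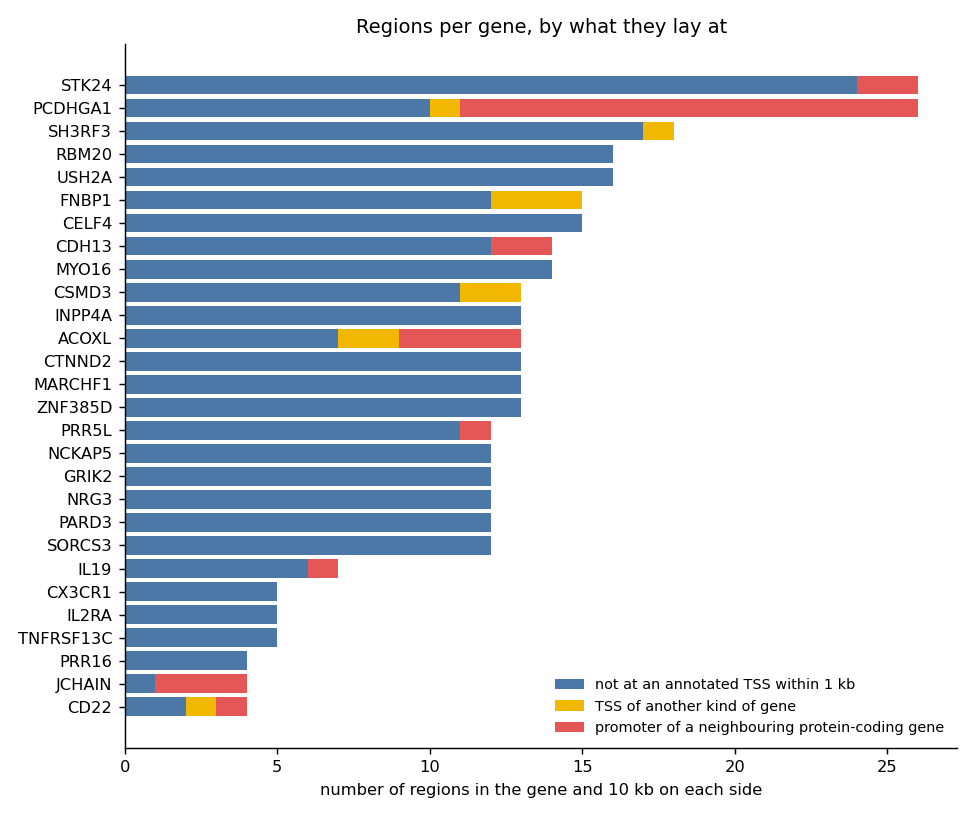
Number of regions in the gene and 10 kb on each side, for the 20 named member genes with most regions outside the γ-protocadherins, PCDHGA1 for its cluster, and 7 genes described in the text, split by what the regions lay at. STK24 and PCDHGA1 have 26 regions each, of which 2 and 15 are promoters of neighbouring protein-coding genes.

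Several member genes are known from lymphocytes. IL2RA, the α chain of the interleukin-2 receptor, had 5 regions of 184.5, 91.3, 24.3, 24.3 and 17.3, all in introns and all between 8117 and 12178 bp from the 5′ end of the gene. CX3CR1, the receptor of fractalkine, had its strongest region (519.9) 6857 bp upstream and one of 195.0 beyond the 3′ end, with weaker ones of 28.6, 20.0 and 16.0. TNFRSF13C, the receptor of the B cell survival factor BAFF, had 5 weak regions of 37.8, 36.2, 33.1, 17.3 and 16.0, of which only the last was in the gene. CD22, an inhibitory co-receptor of the B cell receptor, had 4 of 30.1, 30.1, 25.7 and 20.0. The first of these was the promoter of FFAR1, a fatty acid receptor, and the nearest to a TSS of CD22 was 1103 bp away, just outside the window. IL12RB2, a chain of the interleukin-12 receptor, was also near the limit at 1225 bp, with regions of 57.4, 28.6, 20.0 and 18.7.

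For other genes of immune function the regions belonged in part to a neighbour. JCHAIN, which joins IgM and IgA into polymers, had 3 of its 4 regions (629.5, 129.6 and 22.8) at the promoter of UTP3, a gene of ribosome synthesis, and 1 intronic region of 28.6. IL19, a cytokine of the interleukin-10 family, lies beside IL10. Its strongest region (218.4) was counted to IL10 at 980 bp from that gene's TSS, and 6 more scored between 45.8 and 153.6, 5 of them in introns of IL19. IFNGR2, a chain of the interferon-γ receptor, had the promoter of TMEM50B (246.6) in its flank and 4 regions of 30.1, 24.3, 22.8 and 20.0 of its own, the nearest 1077 bp from a TSS. UBASH3A, a regulator of T cell receptor signalling, had 4 intronic regions between 27.2 and 37.8.

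**Figure D4:**
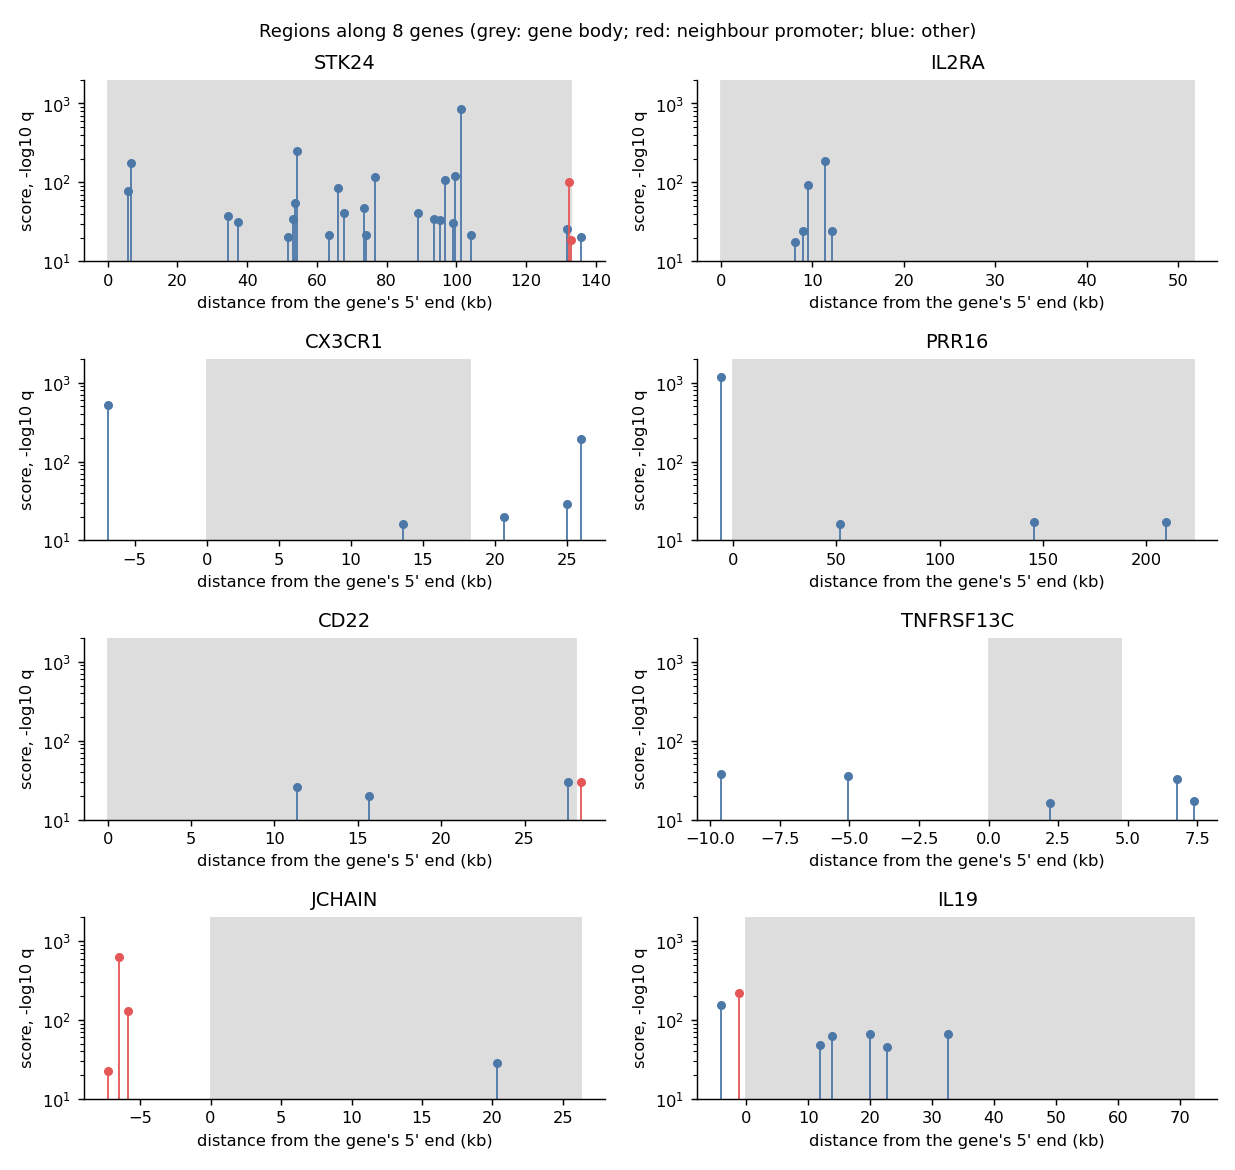
Score (−log10 q, log axis) of each region against its distance in kb from the 5′ end of the gene, for 8 member genes; grey marks the gene body, red a neighbour promoter and blue any other region. The 5 regions of IL2RA lie together in the first part of the gene, and 3 of the 4 regions of JCHAIN are promoters of UTP3 upstream.

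The gene lists put these cases in proportion. CD22 and TNFRSF13C were the 2 members among 37 genes of B cell identity (5.41%), of which 28 did have a promoter region. None of 38 genes of the NF-κB pathway and none of 28 genes of B cell receptor signalling were members. Of these, 31 and 26 had a promoter region. Among 46 cytokines and their receptors 4 were members (8.70%), and among 36 genes of the tumour necrosis factor superfamily 1 was. JCHAIN was the only member of 18 germinal centre and plasma cell genes, and UBASH3A the only member of 40 T and NK cell genes. No chemokine or homing receptor of 45, no gene of 19 for MHC class II presentation and no myeloid gene of 29 was a member. Nor was any hepatocyte gene of 26 or epithelial gene of 25. In the order given, 25, 11, 24, 24 and 14 genes of these lists had no promoter region and fewer than 4 regions. Neuronal genes gave 3 of 30 (10.0%), muscle and heart genes 2 of 25 (8.00%) and erythroid and megakaryocyte genes 1 of 26 (3.85%). Over all protein-coding genes the share of members was 2.49%. The counts of members in the lists are small, and no list was tested against that share. In families, protocadherins gave 14 of 65 (21.5%, 12 of them the 1 cluster above), collagens 4 of 44 (9.09%), potassium channel genes 7 of 95 (7.37%), solute carriers 13 of 337 (3.86%), zinc finger genes named ZNF 4 of 509 (0.786%) and olfactory receptors 3 of 414 (0.725%).

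Genes of other tissues on the lists had regions of different kinds. Of 30 neuronal genes 3 were members. CAMK2B, a subunit of a calcium/calmodulin-dependent kinase, had an intronic region of 439.9 that lay 1614 bp from one of its TSSs, and took 186.6 from the promoter of YKT6. The glutamate receptor genes GRIN2B and GRIA1 had 5 and 4 regions, none above 60.9. In muscle, TTN, the gene of titin, had 6 regions, of which 5 lay within 1 kb of a start of its antisense RNA TTN-AS1, with scores of 423.2 and 178.2 for the strongest. RYR1, the calcium release channel, had 4 intronic regions of 62.6 or less. HBG2, a fetal globin gene that the annotation extends over 252.4 kb, had 5 regions, including promoters of olfactory receptor genes (37.8 and 21.4).

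The kind of region varied with the span of the gene. Of the 500 genes, 32.2% spanned under 50 kb, and 40.1% of their 774 regions were neighbour promoters. For the 30.6% of genes of 50 to 200 kb this share was 15.8%, and for the 37.2% over 200 kb it was 5.96%. The gene body held 30.4%, 75.2% and 90.0% of the memberships in these groups. Every gene was given the same flanks of 10 kb, which make up less of the searched sequence as span grows. The rise in the share of the body is therefore in part built in, as is the fall in neighbour promoters that lie in the flanks. The same 3 groups had medians of 12.9, 4.66 and 1.32 regions per 100 kb including the flanks, and median scores of 30.1, 28.6 and 21.4 for regions that were not neighbour promoters. The list as a whole held 1.65 regions per 100 kb of the chromosomes. Below that density were 24.6% of the member genes, against 6.26% of the 4076 genes with a promoter region and 4 or more regions. All of these members spanned over 200 kb, which the rule fixes, because 4 regions keep any shorter gene above that density. The required 4 regions set a least density that falls with span, so the fall in density across the 3 groups is in part built in. Members below the density of the list included GRIN2B, GRIA1, NKAIN2 and the adhesion gene CDH13, with 14 regions over 1174 kb. Member genes spanned a median of 122.7 kb, against 63.3 kb for the genes with a promoter region and 4 or more regions and 27.3 kb for all. They had a median of 5 annotated TSSs, against 8 and 5. The chance that a gene passes the rule depends on its length and its number of TSSs, and how far these account for the set was not tested.

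The densest small genes by regions that were not neighbour promoters were LITAFD with 26.1 per 100 kb, GPR25 with 23.6, VSIG4 with 23.4, CRYAA with 21.0 and TNFRSF13C with 20.2. GPR25, an orphan receptor gene of 1.20 kb, had 5 regions of 227.0, 121.7, 89.4, 27.2 and 18.7, all outside the gene. VSIG4, a complement receptor of macrophages, had 9 regions, none above 55.8, of which 2 lay within 1 kb of a start of MIR223HG, the host gene of a myeloid microRNA. CRYAA, a lens crystallin, had 5 of 55.8 or less. The 5 regions of CALHM3, an ion channel gene, were led by one of 257.6 in the downstream flank. The 6 of ADAMTSL4 lay downstream, 4 of them at starts of non-coding genes, and the 4 of OR6S1, an olfactory receptor, lay together downstream with scores of 64.3, 36.2, 34.7 and 24.3.

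The promoters of the member genes were mixed in CpG content. In the 300 bases around the main TSS (250 before and 50 after it), read for 495 of the 500 genes, the median was 17 CpG (quartiles 5 to 33). For genes with a promoter region and 4 or more regions it was 28, and for genes with neither a promoter region nor 4 regions it was 10. At least 15 CpG were found in 52.5% of member genes, 83.3% of the genes with a promoter region and 4 or more regions and 42.7% of those with neither. At most 5 were found in 26.3%, 6.73% and 36.3%. A GC content of 75% or more was found in 22.2%, 19.6% and 13.0%. The start of STK24 held 51 CpG, those of IFNGR2 and PRR16 44 and 41, and those of CD22, IL2RA, CX3CR1 and JCHAIN 9, 4, 2 and 0. FOXP1, a forkhead factor of lymphocytes added after its values were seen, had 41 CpG at its main start and 8 regions of up to 180.3, none nearer than 1877 bp to a TSS. By the distance of the nearest region from a TSS, the median was 20.5 CpG with a region 1 to 2.5 kb away, 12.5 at 2.5 to 10 kb and 20 beyond 10 kb.

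**Figure D5:**
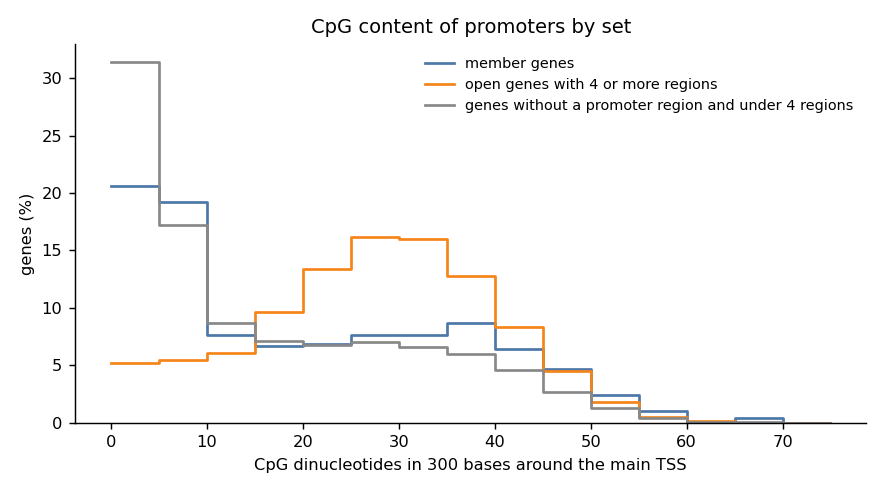
Share of genes (percent) by the number of CpG dinucleotides in 300 bases around the main TSS, in steps of 5. Member genes (median 17) spread over the whole range, while the genes with an open promoter and 4 or more regions gather around a median of 28 and the remaining genes without a promoter region have a median of 10.

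In base composition and motifs, the regions away from promoters had values close to those of other such regions in the list. Mean GC content was 49.4% ± 6.67 at member genes (SD over 2367 regions), against 49.2% ± 6.48 at genes with a promoter region and 4 or more regions, and neighbour promoters had 60.7% ± 8.66. Motifs of B cell factors occurred at member genes and over the rest of the list away from promoters in these shares: RUNX in 13.9% and 14.3%, the E-box in 29.7% and 30.6%, EBF1 in 12.0% and 10.7%, the PU.1 motif (GAGGAAGT) in 5.03% and 5.60%, NF-κB (GGANTTTCC) in 2.75% and 3.17% and the octamer (ATTTGCAT) in 3.76% and 3.90%. AP-1 occurred in 20.6% and 20.8%, and CTCF (CNAGGGGGC) in 3.21% and 2.97%. For 19 of the 20 motifs the ratio of the shares lay between 0.866 and 1.17. The exception was NRF1 (GCGCNTGCG), a motif of CpG-rich promoters, in 0.380% (9 regions) and 1.02%, while neighbour promoters held it in 9.41%.

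The genes nearest the 1 kb limit on each side were picked by that distance, so their distances are close by construction. THEMIS2, PTPRCAP, NKAIN2, SH3RF3 and CAMK2B entered with their nearest region 1017, 1036, 1034, 1043 and 1021 bp from a TSS, while PEBP4, CCDC27, SLC23A2, CACNB4 and HAAO stayed out at 999, 983, 981, 974 and 971 bp. THEMIS2, a signalling adaptor of B cells and macrophages, had 4 regions of 74.9, 27.2, 24.3 and 24.3, and PTPRCAP, the partner of the phosphatase CD45, had 1 region in the gene (37.8) and 3 at the promoters of CORO1B and RPS6KB2. The nearest region lay 1 to 1.5 kb from a TSS in 13.0% of the members, at 1.5 to 2.5 kb in 12.0%, at 2.5 to 5 kb in 27.6%, at 5 to 10 kb in 19.4%, at 10 to 50 kb in 25.6% and beyond 50 kb in 2.40%. By number, 35.0% of the members had exactly 4 regions, 365 genes with 3 were left out, and 57 members had 10 or more. Of the 2877 regions, 729 (25.3%) were also counted at a gene that had a promoter region and 4 or more regions. Adjacent summits of 1 called peak count separately, and 74 member genes had fewer than 4 distinct peaks.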

How the data were processed

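Single-cell ATAC-seq libraries of unstained GM12878 cells were covered, 96 of plate 1 and 95 of plate 2, all in 1 group by their labels. The study's methods describe adapter trimming, mapping to hg19, removal of mitochondrial, duplicate and low-quality reads, and summit calling over the pooled cells at q of 0.05, after which the authors retained the 50000 of lowest q-value. Bowtie2 2.1.0, Picard 1.79 and MACS2 (no version stated) are named in the submitters' processing notes. The deposited score is −log10 of the q-value, and regions are 501 bp as written. The list holds no reads, so the depth of single libraries is unknown from it, and the study's methods give only an average number of reads per cell. Discarding multiply mapped reads can lower the score of regions in near-identical copies of a sequence. Whether it did so at any gene described here was not tested.

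Genes were those of GENCODE 44 mapped to GRCh37, whose chromosome lengths match hg19. A region was placed by its centre, and TSSs were the 5′ ends of all transcripts of a gene. A neighbour promoter was a region with a TSS of another protein-coding gene within 1 kb. A region was counted once however many member genes it belonged to. The 44 genes with clone names and 42 readthrough genes stayed in all counts, but the 47 genes of either kind were not named. Motifs were consensus strings matched on both strands of the whole region. Shares have exact binomial 95% intervals.

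The members, the 15 gene lists, 12 families and 20 motifs were chosen with earlier results of these data known. Genes were named by rule: the 12 with most regions, the 8 densest, the 8 with the strongest region that was no neighbour promoter, members on the lists, the 5 nearest each side of the 1 kb limit, the 5 with most regions whose regions were neighbour promoters or within 1 kb of a neighbour promoter, and the 6 with the strongest neighbour promoter. FOXP1, CDH13 and the genes plotted by number of regions that fall outside this rule were added after their values were seen. A gene that the rule names is not reported here. The selection of genes was tested on simulated data. The scripts ran on Python 3.11.15 with matplotlib 3.10.9, scipy 1.17.1, pandas 2.3.3 and numpy 2.4.6.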

Additional observations from a re-analysis of the deposited data

How the results depend on the processing

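No paired analysis was possible because the values come from 1 pooled list with no second group. The 500 genes became 269 without flanks, 2328 with flanks of 50 kb, 865 with at least 3 regions, 206 with at least 6, and 193 using only regions at or above the median score, of which 63.2% were among the 500. Their 2877 regions became 1648, 10908 and 1636 without flanks, with 50 kb and with at least 6 regions, 4331 with TSSs of basic transcripts only, and 973 at or above the median score. The share of neighbour promoters, 17.7%, became 13.4% and 21.2% with promoter windows of 500 bp and 2.5 kb, 5.76% without flanks and 37.8% with 50 kb, 21.1% and 14.9% with at least 3 and 6 regions, 13.9% and 14.6% with basic and with protein-coding transcripts, 20.3% at or above the median score, and 13.2% with 1 summit per called peak. Chosen after seeing the data, it was 5.13% when neighbour promoters did not count towards the 4 regions and 14.8% without readthrough and unnamed genes. The median score away from promoters, 24.3, became 27.2 with flanks of 50 kb and also without regions at the lowest score, and 55.8 at or above the median score. The number of genes was 648 and 375 with promoter windows of 500 bp and 2.5 kb. With TSSs of basic and of protein-coding transcripts only, it was 704 and 602. The number thus rests most on the flank, the required number of regions and the score cut. It also moves, though less, with the promoter window and the TSSs used.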
